A study of Maylandia zebra with 2 samples.

Results

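Collagen genes were picked out of the deposited features by symbol alone, as names of the form col, number, a, number in either case. The rule found 31 of 28622 features, and none of them carries the words 1 of many. They were described in oral lamina, the soft tissue that lies next to the replacement teeth, of the cichlid fish *Maylandia zebra*. Single nuclei, sorted as DAPI-positive singlets, came from the upper jaw and from the lower jaw, 1 library each, and the number of fish is not given in the sources used here. Both libraries share 1 matrix whose barcodes end in suffix 1 or suffix 2, and the files used here do not say which suffix belongs to which jaw. The nuclei were therefore pooled as 1 sample without replicates, no jaws were compared, and no test was run. Values of the suffix sets are given beside the pooled ones.

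The authors kept 1296 nuclei with 1423040 UMIs (unique molecular identifiers, the tags by which captured RNA molecules are told apart), 754 nuclei in suffix 1 and 542 in suffix 2, and 1 kept barcode sequence occurs in both. They put the nuclei in 12 clusters and 6 named classes. Cluster 6 is the Mesenchymal class (85 nuclei, median 986 UMIs). Clusters 0, 1, 3, 4 and 7 are Epithelial (808 nuclei), clusters 2, 8 and 9 Immune (266), and cluster 5 Pigmented (98). Cluster 10 is named Mature TB (21 nuclei) and cluster 11 Immature TB (18), read here as taste bud because *calb2a* and *trpm5* reached 4244 and 1031 CPM in the first and *sox2* 2646 CPM in the second. CPM is the summed UMI count of a gene in a set of nuclei per 1000000 UMIs of that set. Ranges in parentheses are 95% intervals for counting error only, which do not cover variation between fish. The clusters were built from expression, so a difference between clusters describes them and is no test. The names were checked against marker genes. The mesenchyme list (*prrx1b*, *pdgfra*, *dcn*, *FBN1* and others) summed to 2532 CPM in cluster 6 and to 311 CPM or less in every other cluster. The taste bud list summed to 6386 CPM in cluster 10 and 2948 CPM in cluster 11, against 1278 CPM in cluster 8 and 306 CPM or less elsewhere. Only 3 of its 7 features had UMIs in cluster 10 and only 2 in cluster 11. The markers of cluster 5 were mixed. Its macrophage list (*stab1*, *spi1b*, *csf1ra*) summed to 3140 CPM in 77.6% of its nuclei, against 218 CPM or less in every other cluster. The pigment cell list was also highest in cluster 5, at 635 CPM in 36.7% of nuclei, against 381 CPM in cluster 6 and 340 CPM or less elsewhere. Of this sum *mitfa* made up 569 CPM, with 0 UMIs for *pmela*, *sox10* and the *tyr* features. Pigmented is therefore used here only as the deposited label. Muscle markers had 0 UMIs throughout.

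Collagens are secreted proteins of triple-helical chains that give connective tissue its strength. Fibrillar collagens (types I, II, V and XI) form the banded fibrils of dermis, dentine and cartilage, and FACIT collagens coat the surface of such fibrils. Collagen VI forms fine beaded filaments around cells, network collagens form sheets such as the type IV scaffold of basement membranes, and type VII forms the anchoring fibrils that tie an epithelium to the tissue beneath. In zebrafish skin, basal epidermal cells as well as dermal fibroblasts are known to express type I collagen genes. No protein or promoter sequences were at hand, so none are printed.

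The 31 genes held 4806 UMIs, or 0.338% of all UMIs, and 853 nuclei had at least 1 of them. Most of this came from few genes: 15 had at least 20 UMIs, 9 had 1 to 19 and 7 had 0. The 9 fibrillar genes held 38.7% of the collagen UMIs, the 8 FACIT genes 36.0%, *col7a1* 17.7% and the 4 collagen VI genes 6.72%. The network collagens were nearly undetected. *col4a1* had 1 UMI, *col4a3* 2 and *COL4A4* 0, and *COL8A1*, *col10a1a* and *col10a1b* had 0, which over all kept nuclei allows up to 2.11 CPM each. *col8a2* had 18 UMIs, 6 of them in cluster 6 and 5 in cluster 8. No member is named *col4a2*, *col4a5* or *col4a6*, and none belongs by its symbol to the transmembrane collagens or the multiplexins. The basement membrane collagens are therefore represented here by few genes and very few counts. Whether the missing genes are among the features under other names was not tested. The type II gene *col2a1a* and the type XI gene *col11a2* had 0 UMIs, and the type IX genes *col9a1a*, *col9a2* and *col9a3* had 7, 2 and 1. The other type XI gene, *col11a1a*, was not scarce, with 182 UMIs.

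**Figure D1:**
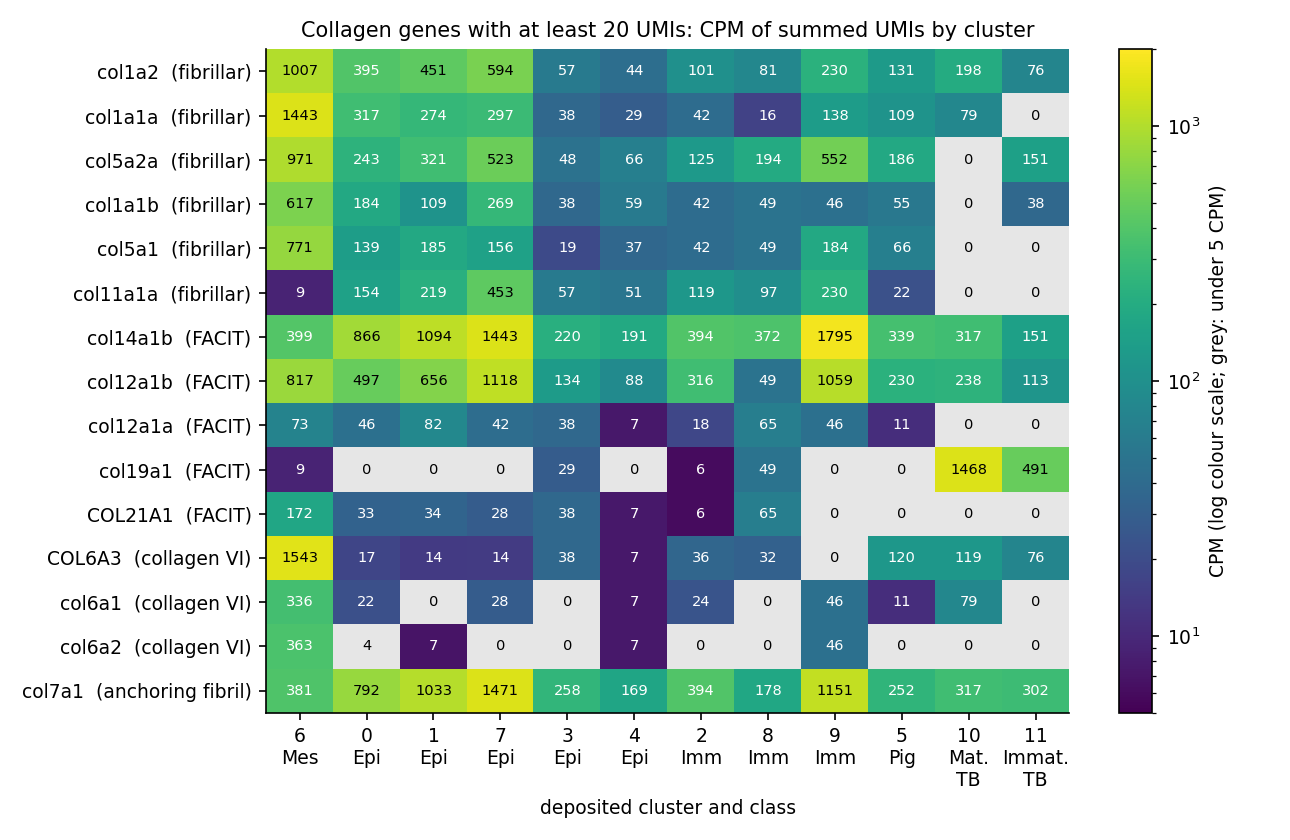
CPM of the 15 collagen genes with at least 20 UMIs (down the page, with their group) in the 12 deposited clusters (across, with their class: Mes Mesenchymal, Epi Epithelial, Imm Immune, Pig Pigmented, Mat. TB Mature TB, Immat. TB Immature TB), on a log colour scale. Cluster 6 has the highest level of 9 genes, and *col7a1*, *col12a1b* and *col11a1a* are highest in cluster 7.

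Collagens took 0.902% of the UMIs in the Mesenchymal class. In the epithelium the share was 0.420% over clusters 0, 1 and 7 together and 0.0926% over clusters 3 and 4. The Immune cluster 2 had 0.169%. Of the 15 genes with at least 20 UMIs, 9 were at least 2-fold higher in the Mesenchymal class than in all other kept nuclei, against 10.6% of the 9333 features with at least 20 UMIs, and the median ratio of the 15 was 4.62, against 0.825 over all those features. Only 2 were at least 2-fold lower there, *col11a1a* and *col19a1*, where 25.1% of all features were. The *col19a1* call rests on 1 Mesenchymal UMI. Its comparison set also held the taste bud classes, and 37 of the 58 *col19a1* UMIs lay in Mature TB. The same 9 genes had their highest level in cluster 6, against 6.84% of all features. They are the 3 type I genes, *col5a1*, *col5a2a*, *COL21A1* and the 3 collagen VI genes *COL6A3*, *col6a1* and *col6a2*. Cluster 7 held the highest level of 3 genes, *col7a1*, *col12a1b* and *col11a1a*, and 8.26% of all features peak there.

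In the other classes few collagens stood above the rest. The Epithelial class had 2 genes at least 2-fold higher than all other kept nuclei, *col7a1* and *col11a1a*, beside 12.6% of all features, and 4 at least 2-fold lower, *col19a1* and the 3 collagen VI genes, beside 16.3%. For *col19a1* the comparison set of the Epithelial class again held the taste bud classes. The median ratio of the 15 genes in the Epithelial class was 0.666, against 0.998 over all features. The Immune class had 0 higher, beside 11.6% of all features, and 8 lower, beside 16.6%. One of the 8, *col6a2*, had 1 UMI in the Immune class. The Pigmented class had 0 higher, beside 14.6%, and 11 lower, beside 29.3%. Of these 11, *col19a1*, *COL21A1* and *col6a2* had 0 UMIs in the class, *col6a1* and *col12a1a* had 1 and *col11a1a* had 2. A count of 0 allows up to 32.8 CPM there, so calls on so few UMIs are uncertain. Mature TB and Immature TB had 9 and 12 genes at least 2-fold lower, which is 60.0% and 80.0% of the 15, where 48.8% and 44.2% of all features were, and all of these calls rest on under 10 UMIs in the class. Set against epithelial clusters 0, 1 and 7 alone, the Mesenchymal class had 10 genes at least 2-fold higher, beside 16.8% of all features, among them *col19a1* on 1 UMI against 0. It had 3 at least 2-fold lower, *col7a1*, *col14a1b* and *col11a1a*, beside 23.6%.

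The make-up of the collagen UMIs differed between Mesenchymal and epithelial nuclei. In the Mesenchymal class 53.7% (50.6–56.9) of the collagen UMIs were fibrillar, 25.1% (22.5–28.0) collagen VI, 16.3% (14.1–18.7) FACIT and 4.22% (3.06–5.67) *col7a1*. In epithelial clusters 0, 1 and 7 the shares were 36.9% (35.1–38.7) fibrillar, 0.984% (0.655–1.42) collagen VI, 39.7% (37.9–41.5) FACIT and 21.8% (20.3–23.3) *col7a1*. Thus collagen VI made up a large share of the first set and hardly any of the second, and *col7a1* the reverse. Clusters 3 and 4 held far fewer collagen UMIs, of which 31.8% (25.8–38.4) were fibrillar, 3.59% (1.56–6.95) collagen VI, 41.3% (34.7–48.0) FACIT and 22.4% (17.1–28.5) *col7a1*. Their collagen VI share, on 8 UMIs, was above that of clusters 0, 1 and 7 beyond counting error, while the intervals of the other 3 shares overlapped. These are shares of UMIs and say nothing of the ratio of the proteins.

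**Figure D2:**
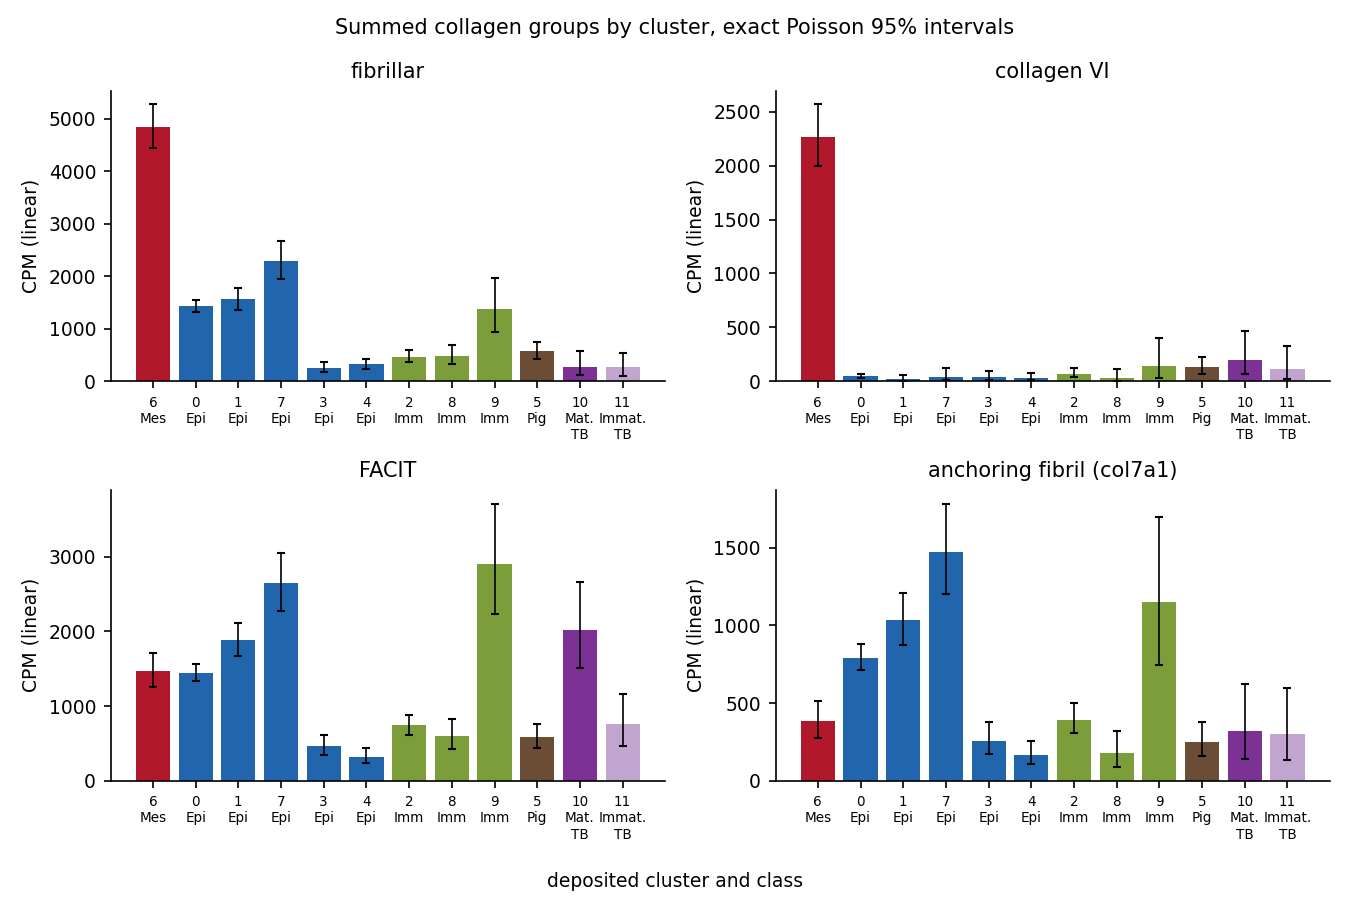
Summed CPM (linear axes) of the fibrillar, collagen VI and FACIT genes and of *col7a1* in the 12 clusters, bars coloured by class, with exact Poisson 95% intervals. Collagen VI stands at 2269 CPM in cluster 6 and at 198 CPM or less elsewhere, while FACIT genes and *col7a1* are high in epithelial clusters 0, 1 and 7 and in Immune cluster 9.

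Fibrillar genes were highest in Mesenchymal nuclei and had a second, lower level in epithelial clusters 0, 1 and 7. Together they stood at 4846 CPM (4444–5275) in the Mesenchymal class, at 1550 CPM in epithelial clusters 0, 1 and 7 and at 295 CPM in clusters 3 and 4. The Mesenchymal class was 3.13-fold (2.81–3.47) above clusters 0, 1 and 7, with 3.16 in suffix 1 and 3.09 in suffix 2. Clusters 0, 1 and 7 were in turn 5.26-fold (4.13–6.79) above clusters 3 and 4, with 5.36 and 5.01 in the suffix sets. The richest Mesenchymal nucleus held 67 of the 534 fibrillar UMIs of its class, and without it the ratio to clusters 0, 1 and 7 was 2.78.

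Type I collagen is the main fibril protein of bone, dentine and dermis, and fish carry 2 copies of the gene for its alpha 1 chain, *col1a1a* and *col1a1b*, beside *col1a2* for the alpha 2 chain. *col1a1a* (397 UMIs) stood at 1443 CPM (1227–1686) in the Mesenchymal class, 234 (204–268) in the Epithelial, 43.8 (21.9–78.4) in the Immune, 109 (52.5–201) in the Pigmented and 79.3 (9.61–287) in the Mature TB class. It had 0 UMIs in Immature TB, cluster 11, its lowest, and a count of 0 allows up to 113 CPM there. *col1a2* (459 UMIs) stood at 1007 CPM (829–1213) in the Mesenchymal class, 329 (293–368) in the Epithelial, 108 (70.9–156) in the Immune, 131 (67.8–229) in the Pigmented, 198 (64.4–463) in Mature TB and 75.6 (9.15–273) in Immature TB, with its lowest level, 44.0 CPM, in cluster 4. *col1a1b* (217 UMIs) stood at 617 CPM (479–782) in the Mesenchymal class, 144 (120–170) in the Epithelial, 43.8 (21.9–78.4) in the Immune and 54.7 (17.8–128) in the Pigmented class, with 1 UMI in Immature TB and 0 in Mature TB, its lowest cluster. All 3 genes thus had their top level in cluster 6 and an intermediate one in the Epithelial class as a whole. Not every epithelial cluster was intermediate. In epithelial clusters 3 and 4 together *col1a1a* stood at 33.2 CPM, *col1a2* at 49.8 CPM and *col1a1b* at 49.8 CPM.

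The step from epithelial clusters 0, 1 and 7 to the Mesenchymal class was not the same for the 3 type I genes. The Mesenchymal class was 4.72-fold (3.82–5.84) higher in *col1a1a*, with 4.78 and 4.81 in suffix 1 and suffix 2. For *col1a1b* the ratio was 3.49 (2.55–4.73), and for *col1a2* it was 2.35 (1.88–2.94), with 2.88 and 1.70. Put as shares, *col1a2* made up 41.1% (35.2–47.2) of the UMIs of *col1a2* and *col1a1a* in the Mesenchymal class and 58.4% (53.9–62.7) in clusters 0, 1 and 7. The copies *col1a1a* and *col1a1b* kept a closer split, *col1a1a* being 70.0% (63.6–75.9) of their sum in the Mesenchymal class and 63.3% (57.8–68.5) in clusters 0, 1 and 7. Near-identical copies can share reads, so this split is uncertain.

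Detection per nucleus followed the levels. A *col1a1a* UMI was present in 55.3% of Mesenchymal nuclei, 24.4% of nuclei of clusters 0, 1 and 7 and 2.79% of clusters 3 and 4. In Immune cluster 2, where the lymphocyte list summed to 2333 CPM, the share was 3.87%, with a median depth of 744 UMIs against 976 in clusters 0, 1 and 7. After each nucleus was thinned to 500 UMIs, which left out 8 Mesenchymal nuclei, 44 of clusters 0, 1 and 7, 70 of clusters 3 and 4 and 31 of cluster 2, a *col1a1a* UMI remained in 44.2% of Mesenchymal nuclei and 11.7% of clusters 0, 1 and 7. The share in clusters 3 and 4 was no higher than that in cluster 2, and the ratio of the 2 levels was 0.795 (0.252–2.58), on 8 UMIs against 7. The interval is too wide to show that the levels are equal. Cluster 2 also had the epithelium list at 8229 CPM, so it is no clean background. The source of the *col1a1a* counts in clusters 3 and 4 was not tested.

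Type V collagen is built into type I fibrils and sets their width. *col5a2a*, for its alpha 2 chain (383 UMIs), stood at 971 CPM (796–1173) in the Mesenchymal class, 229 (199–262) in the Epithelial, 179 (131–240) in the Immune, 186 (108–298) in the Pigmented and 151 (41.2–387) in Immature TB, with 0 UMIs in Mature TB. *col5a1*, for its alpha 1 chain (214 UMIs), stood at 771 CPM (616–954) in the Mesenchymal class, 119 (97.4–143) in the Epithelial, 55.8 (30.5–93.5) in the Immune and 65.7 (24.1–143) in the Pigmented class, with 0 UMIs in both taste bud classes. The Mesenchymal class was 5.13-fold (3.80–6.90) above clusters 0, 1 and 7 in *col5a1* and 3.36-fold (2.63–4.27) in *col5a2a*. The second alpha 2 gene, *col5a2b*, had 9 UMIs in all, 5 of them in cluster 4.

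*col11a1a*, for the alpha 1 chain of type XI, which in mammals pairs with type II in cartilage and with type V elsewhere, went against the other fibrillar genes. It had 1 UMI in the 85 Mesenchymal nuclei, a level of 9.07 CPM (0.230–50.6), and 148 UMIs in the Epithelial class, at 161 CPM (136–189). It stood at 123 CPM (83.9–175) in the Immune and 21.9 (2.65–79.0) in the Pigmented class and had 0 UMIs in both taste bud classes. Its top level, 453 CPM, was in epithelial cluster 7, which was 2.94-fold (1.87–4.52) above cluster 0. *col11a1a* made up 1.16% (0.0294–6.31) of the UMIs of *col11a1a* and *col5a1* in the Mesenchymal class and 57.0% (50.4–63.4) in clusters 0, 1 and 7. The single Mesenchymal UMI lay in suffix 2. Immune cluster 2 also held *col11a1a*, at 119 CPM, and clusters 0, 1 and 7 were 1.67-fold (1.04–2.82) above it, with 2.20 in suffix 1 and 1.21 in suffix 2.

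**Figure D3:**
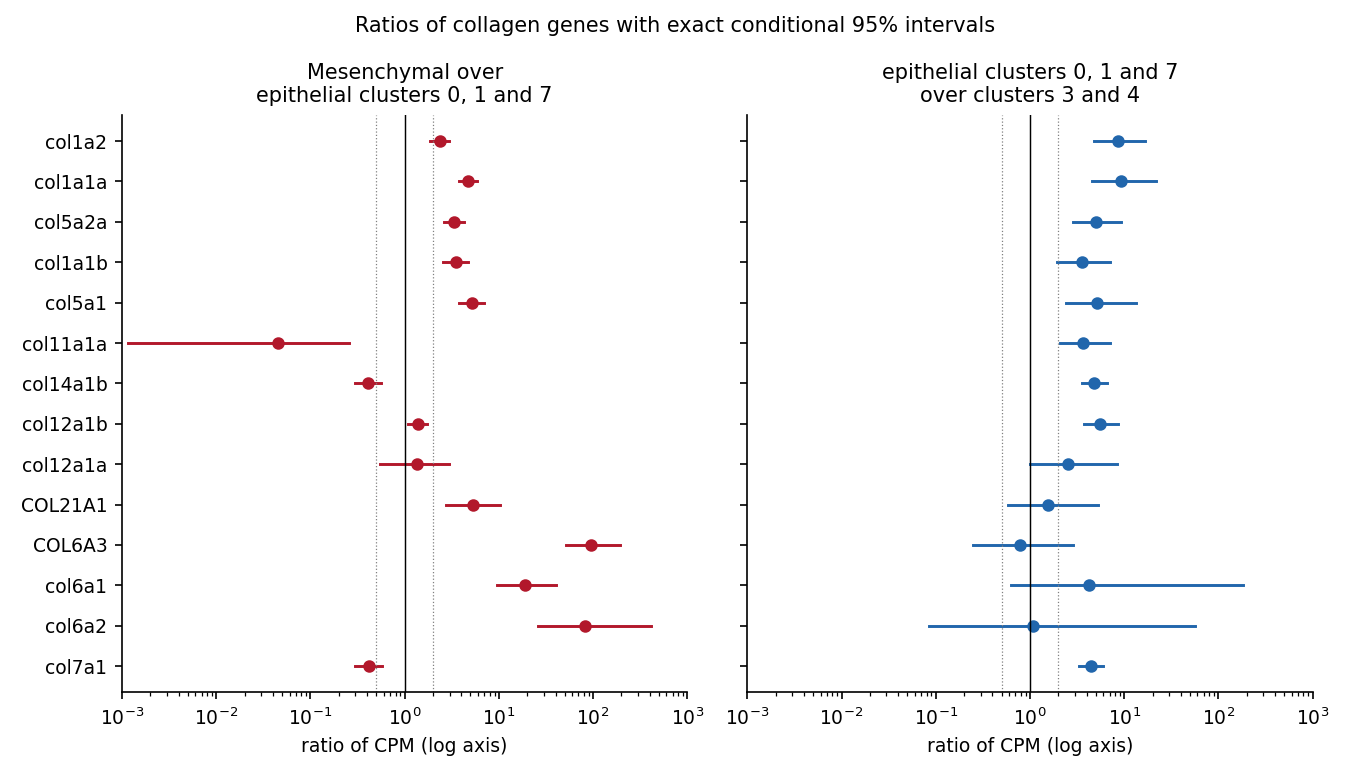
Ratio of CPM (log axis) with exact conditional 95% intervals for 14 collagen genes, left for the Mesenchymal class over epithelial clusters 0, 1 and 7 and right for those clusters over epithelial clusters 3 and 4; the solid line marks 1 and dotted lines mark 2-fold. *COL6A3*, *col6a1* and *col6a2* lie farthest right in the left panel, at 95.1, 19.0 and 82.0, the last on 40 UMIs against 3 with an interval of 26.1 to 414.5, and *col11a1a* farthest left, at 0.0456.

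Collagen VI showed the widest contrast of the groups. Its genes summed to 2269 CPM (1996–2568) in Mesenchymal nuclei and to 41.3 CPM in epithelial clusters 0, 1 and 7, a ratio of 54.9 (37.1–84.4), with 69.2 in suffix 1 and 40.2 in suffix 2. No comparable step was seen between epithelial clusters, where clusters 0, 1 and 7 stood at 1.24 (0.552–3.16) times clusters 3 and 4. The epithelial level was also no higher than in Immune cluster 2, with a ratio of 0.577 (0.284–1.25) for clusters 0, 1 and 7. The chains of collagen VI assemble together inside the cell, so the 3 genes were followed side by side.

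*COL6A3*, for the large alpha 3 chain (210 UMIs), stood at 1543 CPM (1320–1793) in the Mesenchymal class, 17.4 (9.96–28.3) in the Epithelial, 31.9 (13.8–62.8) in the Immune, 120 (60.1–215) in the Pigmented, 119 (24.5–348) in Mature TB and 75.6 (9.15–273) in Immature TB, with 0 UMIs in cluster 9. *col6a1*, for the alpha 1 chain (58 UMIs), stood at 336 CPM (236–463) in the Mesenchymal class, 14.2 (7.54–24.2) in the Epithelial and 19.9 (6.47–46.5) in the Immune class, with 1 UMI in the Pigmented, 2 in Mature TB and 0 in Immature TB, and with 0 also in clusters 1, 3 and 8. *col6a2*, for the alpha 2 chain, had 40 of its 45 UMIs in the Mesenchymal class and 4 in the Epithelial. In the RefSeq gene order *col6a1* and *col6a2* are neighbours with 0 protein-coding genes between them. Over the 12 clusters their levels, as log2 of CPM with 10 added, had a Pearson r of 0.73, given as a description since the clusters share libraries. *COL6A6*, an alternative chain to the alpha 3 chain, had 10 UMIs, no more than 1 in any nucleus.

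In nuclei, a *COL6A3* UMI was present in 60.0% of the Mesenchymal class and, thinned to 500 UMIs, in 41.6%. The share was 2.11% in clusters 0, 1 and 7 and 2.21% in Immune cluster 2. Of the Mesenchymal nuclei 51 held UMIs of both fibrillar collagens and collagen VI, 19 held only fibrillar UMIs, 5 only collagen VI UMIs and 10 neither. *COL6A3* was found in 86.4% of the Mesenchymal nuclei with a *col6a1* UMI and in 50.8% of those without one. Among the 521 nuclei of clusters 0, 1 and 7, 11 had a *COL6A3* UMI, 12 had a *col6a1* UMI and 0 had both. With so few nuclei positive, a count of 0 cannot show whether the 2 genes go together there. The Pigmented class had 11 *COL6A3* UMIs, 3.36-fold (1.14–11.1) above Immune cluster 2, and they came from 4 of its 98 nuclei and 8 of them from 1 nucleus.

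FACIT genes did not share 1 pattern. As a group they stood at 1470 CPM (1253–1715) in Mesenchymal nuclei and 1666 CPM in epithelial clusters 0, 1 and 7, a ratio of 0.883 (0.744–1.04), with 0.995 in suffix 1 and 0.640 in suffix 2. Against all other kept nuclei the Mesenchymal ratio was 1.23 (1.04–1.45), but 1.59 in suffix 1 and 0.779 in suffix 2, so its direction differed between the suffix sets. Clusters 0, 1 and 7 were 4.36-fold (3.52–5.45) above clusters 3 and 4, with 4.18 and 4.88.

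*col14a1b*, for collagen XIV (925 UMIs, the most of any member), was highest, among the classes, in the Epithelial. Its top cluster by CPM without TMM factors, described below, was however Immune cluster 9, at 1795 CPM. Epithelial clusters 0, 1 and 7 held 661 of its UMIs and clusters 3 and 4 held 49. *col14a1b* stood at 399 CPM (290–536) in the Mesenchymal class, 773 (717–832) in the Epithelial, 510 (425–606) in the Immune, 339 (231–481) in the Pigmented, 317 (137–625) in Mature TB and 151 (41.2–387) in Immature TB, its lowest cluster. The Mesenchymal class was at 0.409 (0.295–0.556) of clusters 0, 1 and 7 and at the level of Immune cluster 2, with a ratio of 1.01 (0.676–1.51). *col12a1b*, for collagen XII, a coat protein of fibrils under tension (629 UMIs), was high on both sides, at 817 CPM (657–1004) in the Mesenchymal class, 468 (425–515) in the Epithelial, 315 (249–392) in the Immune, 230 (142–351) in the Pigmented, 238 (87.3–518) in Mature TB and 113 (23.4–331) in Immature TB, and lowest in cluster 8, at 48.5 CPM. Its Mesenchymal ratio to clusters 0, 1 and 7 was 1.37 (1.08–1.73), with 1.64 in suffix 1 and 0.822 in suffix 2, and 1 nucleus held 21 of its 90 Mesenchymal UMIs. Without that nucleus the ratio was 1.06.

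The remaining FACIT genes had few UMIs. *col12a1a*, the other copy for collagen XII (58 UMIs), stood at 72.6 CPM (31.3–143) in the Mesenchymal class, 44.6 (32.0–60.5) in the Epithelial, 31.9 (13.8–62.8) in the Immune and 10.9 (0.277–61.0) in the Pigmented class. It had 0 UMIs in the taste bud classes and its top level, 82.1 CPM, in cluster 1, where 5.10% of all features peak. *col12a1a* made up 8.16% (3.59–15.4) of the UMIs of the copies in the Mesenchymal class and 8.18% (5.80–11.2) in clusters 0, 1 and 7, so the split between the copies was alike in both. *COL21A1*, for collagen XXI, known from vessel walls in mammals (51 UMIs), stood at 172 CPM (104–269) in the Mesenchymal class, 29.4 (19.4–42.8) in the Epithelial and 19.9 (6.47–46.5) in the Immune class, with 0 UMIs in clusters 5, 9, 10 and 11. The Mesenchymal class was 5.31-fold (2.72–10.3) above clusters 0, 1 and 7 in *COL21A1*.

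*col7a1* codes for the anchoring fibril collagen, which epidermal cells secrete to hold themselves to the dermis. With 853 UMIs it stood at 381 CPM (275–515) in the Mesenchymal class, 729 (675–787) in the Epithelial, 406 (331–493) in the Immune, 252 (160–378) in the Pigmented, 317 (137–625) in Mature TB and 302 (131–596) in Immature TB. Within the epithelium it was 1471 CPM in cluster 7, its top level, 1033 in cluster 1 and 792 in cluster 0, against 258 in cluster 3 and 169 in cluster 4, its lowest. Clusters 0, 1 and 7 together were 4.41-fold (3.30–6.0) above clusters 3 and 4, with 4.20 in suffix 1 and 4.36 in suffix 2. The Mesenchymal class stood at 0.417 (0.297–0.570) of clusters 0, 1 and 7 and at 0.968 (0.641–1.45) of Immune cluster 2. A *col7a1* UMI was present in 55.7% of nuclei of clusters 0, 1 and 7 and in 12.9% of clusters 3 and 4, beside 18.8% in cluster 2.

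Most collagen genes were higher in epithelial clusters 0, 1 and 7 than in clusters 3 and 4. Of 15 genes, 11 were at least 2-fold higher in clusters 0, 1 and 7, where 17.6% of all features were, and the median ratio of the 15 was 4.26, against 0.995 over all features. Only *col19a1* was at least 2-fold lower, on 0 UMIs against 3, beside 15.8% of all features. The widest ratios with over 5 UMIs on each side were 9.19 (4.58–21.6) for *col1a1a*, 8.59 (4.84–16.8) for *col1a2*, 5.52 (3.71–8.55) for *col12a1b*, 5.18 (2.42–13.2) for *col5a1* and 4.97 (2.89–9.27) for *col5a2a*. *col6a1* is counted among the 11 on 12 UMIs against 1, a ratio of 4.26 (0.631–182), and *col12a1a* on 36 against 5. These clusters were set apart because integrin genes of hemidesmosomes, the junctions that hold basal cells to the basement membrane, divide them: *itga6b* stood at 3934 CPM in clusters 0, 1 and 7 and 577 CPM in clusters 3 and 4, and *itgb4* at 2034 and 328 CPM. Depth moved with the same split, with medians of 976 and 649 UMIs per nucleus, and its part in the difference was not tested. CPM is scaled to the UMI total.

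Among the 3 epithelial clusters rich in collagen, cluster 7 (65 nuclei) was the richest. Over all members its level was 1.73-fold (1.56–1.92) that of cluster 0, while cluster 1 stood at 1.21-fold. The excess in cluster 7 was uneven. *col11a1a* was 2.94-fold higher than in cluster 0, *col12a1b* 2.25-fold (1.72–2.92), *col5a2a* 2.15-fold (1.44–3.15), *col7a1* 1.86-fold (1.48–2.32) and *col14a1b* 1.67-fold (1.33–2.08), whereas *col1a1a* stood at 0.938 (0.564–1.49). The share of *col11a1a* among the UMIs of *col11a1a* and *col5a1* was 74.4% (58.8–86.5) in cluster 7 and 52.6% (43.8–61.3) in cluster 0. For *col7a1* the difference was 1.31-fold in suffix 1 and 2.32-fold in suffix 2, and for *col11a1a* it was 3.12-fold and 2.72-fold. TMM factors, described below, were 0.772 for cluster 0, 0.853 for cluster 1 and 0.919 for cluster 7. Totals scaled by them lower the ratios of clusters 1 and 7 to cluster 0. Median depth was 1703 UMIs in cluster 0, 632 in cluster 1 and 1012 in cluster 7, and its part was not tested.

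*col14a1b* and *col7a1* ran closely together. Over the 12 clusters their levels had a Pearson r of 0.91, the highest of all pairs together with *col1a2* and *col1a1a*. *col14a1b* made up 51.2% (40.1–62.1) of the UMIs of both genes in the Mesenchymal class, 51.6% (48.8–54.4) in clusters 0, 1 and 7, 49.5% (39.3–59.7) in clusters 3 and 4 and 50.0% (41.2–58.8) in Immune cluster 2, so the ratio was the same within counting error in sets whose levels differ. In cluster 2, the 50 nuclei with a UMI of either gene had a median of 1017 UMIs and *itga6b* at 2937 CPM, and the other 131 nuclei had a median of 655 UMIs and *itga6b* at 526 CPM. *itgb4* differed likewise, at 1651 CPM in the 50 nuclei and 449 CPM in the 131. The keratin genes differed little between these sets of cluster 2, with *krt5* at 4033 and 3661 CPM and *krt15* at 1651 and 1300 CPM. The lymphocyte gene *skap1* stood at 429 CPM in the 50 nuclei and 612 CPM in the 131. In the Mesenchymal class, the 30 nuclei with a UMI of either gene had *itga6b* at 1964 CPM and *dcn* at 753 CPM, and the other 55 had them at 682 and 2315 CPM. Here the keratin genes differed too, with *krt5* at 6554 CPM in the 30 nuclei and 3194 CPM in the 55, and *krt15* at 2662 and 1095 CPM. The 30 nuclei were also deeper, with a median of 1557.5 UMIs against 917. The epithelium list of 11 genes summed to 9348 CPM in Mesenchymal nuclei and 8229 CPM in cluster 2, with UMIs for 8 genes in each, and to 28964 CPM in clusters 0, 1 and 7. The part of epithelial RNA in the *col14a1b* and *col7a1* counts of Immune and Mesenchymal nuclei was not tested.

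Immune cluster 9 stood apart from the rest of its class. Its 35 nuclei, with a median of 554 UMIs, had 0.566% of their UMIs in collagen genes. *col14a1b* had its top level there, 1795 CPM (1277–2454), where 13.2% of all features peak, and was 4.56-fold (2.99–6.87) above cluster 2, with 6.74 in suffix 1 and 2.98 in suffix 2. It was also 1.84-fold (1.30–2.54) above epithelial clusters 0, 1 and 7. Factors of TMM, a scaling of UMI totals, were 1.52 for cluster 9 and 0.772, 0.853 and 0.919 for clusters 0, 1 and 7. Totals scaled by them lower cluster 9 against those clusters. After this scaling *col14a1b* was lower in cluster 9 than in clusters 1 and 7. Neither its top level nor its excess over clusters 0, 1 and 7 together remained. *col7a1* stood at 1151 CPM in cluster 9, 2.92-fold (1.77–4.69) above cluster 2, and *col12a1b* at 1059 CPM, 3.35-fold (1.96–5.56) above it. The markers of cluster 9 were mixed. *itga6b* stood at 4097 CPM and *itgb4* at 1795 CPM in it, close to clusters 0, 1 and 7, while *krt5* stood at 3683 CPM, against 15366 CPM in those clusters, and the summed lymphocyte list at 1519 CPM in cluster 9 and 2333 CPM in cluster 2. By CPM without TMM factors, cluster 9 lay nearer in these 3 collagens to epithelial clusters 0, 1 and 7 than to cluster 2. Its deposited name is kept here only as a label.

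*col19a1*, a FACIT-like collagen found in mammals at basement membrane zones and in mouse brain made by interneurons, was the 1 member that peaked in taste bud nuclei, in cluster 10, where 11.6% of all features peak. Mature TB held 37 of its 58 UMIs, at 1468 CPM (1033–2023), and Immature TB 13, at 491 CPM (262–840). It stood at 9.07 CPM (0.230–50.6) in the Mesenchymal class, 3.27 (0.673–9.54) in the Epithelial and 15.9 (4.34–40.8) in the Immune class, and had 0 UMIs in 6 clusters, the Pigmented cluster among them. A UMI was found in 14 of 21 Mature TB nuclei, 66.7% (43.0–85.4), and in 7 of 18 Immature TB nuclei, 38.9%, and at 500 UMIs per nucleus in 57.1% and 22.2%. In Immune cluster 2 the share was 0.552%, with a median depth of 744 UMIs, against 1138 in Mature TB. No nucleus held more than 6 UMIs of *col19a1*.

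The taste bud classes together were 166-fold (78.0–405) above all other kept nuclei in *col19a1*, with 160.2 in suffix 1 and 169 in suffix 2. Mature TB stood at 2.99 (1.55–6.12) times Immature TB. Neither of these contrasts was planned beforehand, so both only describe the clusters where *col19a1* was high. *col19a1* was the only member with at least 20 UMIs that was at least 2-fold higher in Mature TB or in Immature TB than in all other kept nuclei, while 15.9% and 16.0% of all features were at least 2-fold higher. Other collagens were scarce there, with 7 fibrillar UMIs in each taste bud class, and at these depths 3 UMIs equal 119 CPM in Mature TB, so low levels could not be seen. In Mature TB 70.8% (58.9–80.9) of the 72 collagen UMIs were FACIT, most of them *col19a1*.

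**Figure D4:**
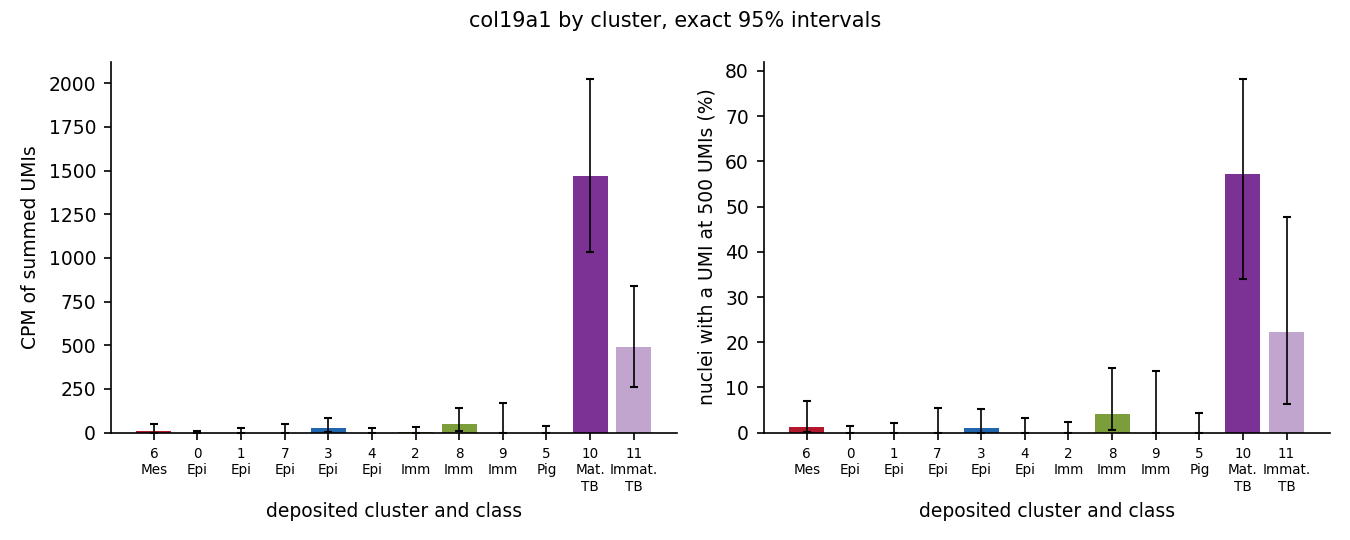
*col19a1* in the 12 clusters, left as CPM of summed UMIs with Poisson 95% intervals and right as percent of nuclei with a UMI after thinning to 500 UMIs with Clopper-Pearson 95% intervals, bars coloured by class. Mature TB (1468 CPM, 57.1% of nuclei) and Immature TB (491 CPM, 22.2%) stand above all other clusters.

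The 85 Mesenchymal nuclei were not uniform. The decorin gene *dcn* or the mesenchymal factor gene *prrx1b* had a UMI in 54 of them, with a median of 1162.5 UMIs per nucleus, and in the other 31 neither had one, with a median of 753. Collagen VI stood at 2842 CPM (2478–3243) in the 54 nuclei and 916 CPM (618–1307) in the 31, and fibrillar genes at 5606 (5091–6159) and 3052 (2483–3712). *col7a1* did not follow, at 387 CPM (261–553) and 366 CPM (189–640). Depth differed between these sets and its part was not tested.

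**Figure D5:**
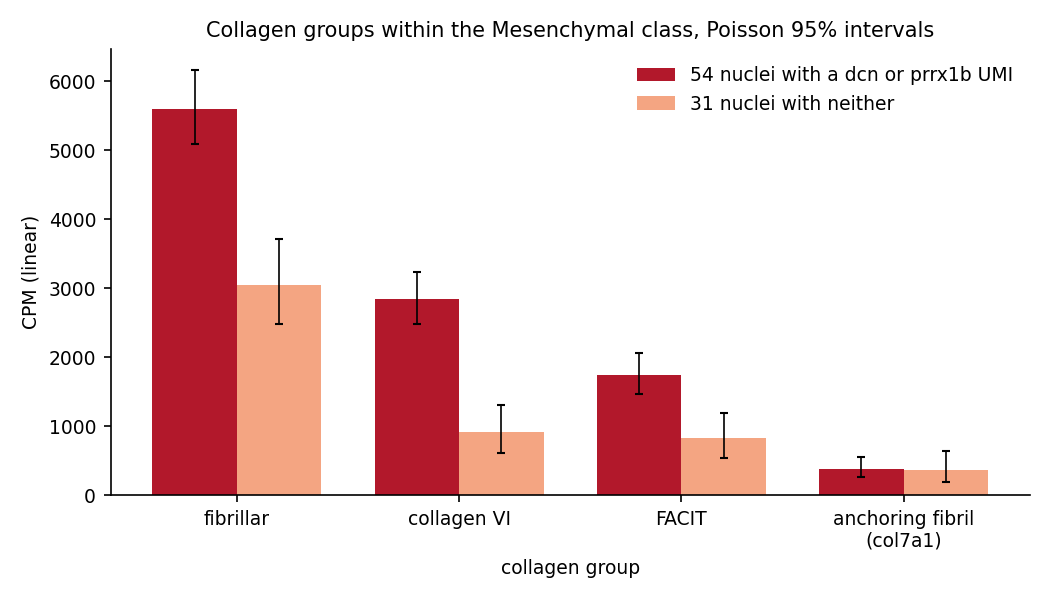
CPM (linear axis) of the fibrillar, collagen VI and FACIT genes and of *col7a1* in the 54 Mesenchymal nuclei with a *dcn* or *prrx1b* UMI (dark bars, left of each pair) and the 31 nuclei with neither (light bars), with Poisson 95% intervals. The first 3 groups are higher in the 54 nuclei, and *col7a1* stands at 387 and 366 CPM.

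Markers of other cell types were present in the class. A UMI of the endothelium list (5 genes, all detected, 27 UMIs) was found in 21 Mesenchymal nuclei. These had fibrillar genes at 2067 CPM (1548–2703), against 5689 CPM (5192–6221) in the other 64, and collagen VI at 1989 CPM (1481–2615), against 2354 CPM (2038–2705). In the 14 of these 21 nuclei that had no *dcn* or *prrx1b* UMI, both groups were below the other 64, with fibrillar genes at 1405 CPM (869.6–2147) and collagen VI at 468 CPM (188–965) on 7 UMIs. The cartilage link protein gene *hapln1a* had UMIs in 10 nuclei, where collagen VI stood at 4097 CPM (3134–5263), against 1983 CPM (1711–2287) in the other 75. The 10 nuclei were also deeper, with a median of 1392 UMIs against 975, and the part of depth was not tested. In the same 10 nuclei fibrillar genes stood at 5575 CPM, against 4732, and the type II gene *col2a1a* had 0 UMIs. UMIs were spread unevenly over nuclei: the richest Mesenchymal nucleus held 87 collagen UMIs, among them 29 of the 159 of *col1a1a*.

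Genes that handle collagen were counted from a list of enzymes, chaperones, crosslinkers, binding proteins, receptors and proteases. Of its 66 matched features 34 had at least 20 UMIs, and in the Mesenchymal class 19 were at least 2-fold higher than in all other kept nuclei, 3 at least 2-fold lower and 12 between, with a median ratio of 2.19. Over all features 10.6% were higher and 25.1% lower, and the median was 0.825. The highest were *itga1*, for a collagen-binding integrin chain, at 26.6 (14.7–50.3), *adamts3*, for a procollagen peptidase, at 20.6 (10.5–41.9), and *mrc2*, for an uptake receptor of collagen fragments, at 19.4 (7.44–53.9). By role, 5 of 5 degradation genes, 4 of 4 fibril-binding genes, 4 of 5 crosslinking genes, 1 of 3 processing genes, 1 of 2 receptors, 1 of 2 genes listed under export and 3 of 13 hydroxylases and chaperones were at least 2-fold higher. The 2 listed under export were *sec24d*, at 3.50 (1.01–9.90), and *tango2*, at 0.903 (0.423–1.71). A part of *tango2* in collagen export was not tested, and it is counted among the 34. The difference between roles was not tested. Among the 19 higher genes, the intervals of *p4ha3* (0.877–4.14), *plod1a* (0.941–5.02) and *loxa* (0.742–5.24) include 1. The fibril-binding genes included *prelp* at 17.3 (7.55–41.3) and *dcn* at 14.0 (11.1–17.6), and the crosslinkers *loxl2b* at 10.9 (5.73–20.6).

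In the Epithelial class 2 of the 34 handling genes were at least 2-fold higher than in all other kept nuclei, beside 12.6% of all features, 9 were at least 2-fold lower, beside 16.3%, and 23 between. Their median ratio was 0.938, against 0.998 over all features. The highest 3 were *p4ha1b*, for a prolyl hydroxylase subunit, at 3.53 (1.58–9.28), *serpinh1a*, for a collagen chaperone, at 2.53 (0.939–8.50), and *colgalt2*, for a collagen glycosyltransferase, at 1.98 (1.41–2.84). The interval of *serpinh1a* includes 1. Among the collagens, *col7a1* at 2.01 (1.70–2.38) and *col11a1a* at 2.39 (1.64–3.58) were the members that stood at least 2-fold above all other kept nuclei in the Epithelial class. Between epithelial clusters, 19 handling genes were at least 2-fold higher in clusters 0, 1 and 7 than in clusters 3 and 4, beside 17.6% of all features, and 0 lower, beside 15.8%, with a median ratio of 2.46, against 0.995 over all features. Some of the 19 rest on few UMIs and have intervals that include 1. Examples are *loxl1* on 1 UMI against 0, *fn1b* on 11 against 1 and *adamts14* on 16 against 1. The chaperone gene *serpinh1b* stood at 133 CPM in clusters 0, 1 and 7 and 12.5 CPM in clusters 3 and 4, a ratio of 10.7 (3.53–52.6) on 90 UMIs against 3. It was also 2.84-fold (1.76–4.42) higher in the Mesenchymal class than in all other kept nuclei.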

How the data were processed

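RNA was counted in single nuclei of oral lamina from the upper and the lower jaw, 1 library each. Per the submitters' processing notes and the file headers, the authors made the deposited raw UMI counts with Cell Ranger 3.1.0; the genome build is not given in the sources used here. The deposited metadata give cluster, class name and a mark for kept nuclei, which equals more than 300 and fewer than 2500 genes and removed 44 barcodes below and 41 above.

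UMIs of kept nuclei were summed per cluster, scaled to CPM and compared as ratios. Levels carry exact Poisson, ratios exact conditional binomial and shares Clopper-Pearson 95% intervals. Depth sets the precision: cluster totals ran from 21723 to 460944 UMIs. Where a count was 0, a floor of 3 UMIs was used as the limit. Detection was also taken after thinning to 500 UMIs. Of the member symbols 25 occur in the RefSeq gene table, used only for names and gene order. Near-identical copies can share reads.

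Members with at least 20 UMIs are named, and those with at least 50 have their level in each class. Members, groups and lists were chosen with earlier results of these data known, so no list is independent evidence. The contrasts of the Mesenchymal class with epithelial clusters 0, 1 and 7, those with Immune cluster 2, those of clusters 7 and 9, the gene pairs, *col5a2b*, *COL6A6*, *serpinh1b*, *prelp*, *dcn* and *loxl2b*, and the sets of nuclei within a class were chosen after their values were seen. The contrast of the joined taste bud classes and that of Mature TB over Immature TB were not planned beforehand either. Alternatives were TMM factors (edgeR 4.0.16, R 4.3.3), each suffix alone, a mean over nuclei, thinning, other UMI minimums, totals without ribosomal protein features, own Leiden clusters made without collagen features, and leaving out the richest nucleus, features named 1 of many or Scrublet calls. Clustering used leidenalg 0.10.2 in scanpy 1.11.5, and all else Python 3.11.15 with scipy 1.17.1, numpy 2.4.6, matplotlib 3.10.9 and pandas 2.3.3. The ratio code was tested on simulated data.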

Additional observations from a re-analysis of the deposited data

Results flagged for a closer look

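The 41 barcodes with 2500 genes or more that the authors did not keep are outside all comparisons and carry no cluster. They held fibrillar genes at 1343 CPM, FACIT genes at 1197 CPM, collagen VI at 150.4 CPM and *col7a1* at 606.3 CPM, all above the 4.56 CPM that 3 UMIs equal in them.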

How the results depend on the processing

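No paired analysis was possible because both jaws carry only replicate 1 and share 1 matrix. Group ratios whose interval leaves out 1, for the Mesenchymal and Epithelial classes and for clusters 0, 1 and 7 over clusters 3 and 4, kept their direction under every alternative run, except FACIT genes in the Mesenchymal class (1.23), at 0.779 in suffix 2, 1.59 in suffix 1 and 1.56 thinned. Collagen VI in clusters 0, 1 and 7 over clusters 3 and 4 (1.24) stood at 0.963 in suffix 1. The Mesenchymal fibrillar ratio (4.80) was 5.40 in suffix 1, 4.24 in suffix 2, 5.85 as a mean over nuclei, 4.27 without the richest nucleus, 5.92 thinned and 5.48 in own clusters, where 1 of 17 clusters held 77.6% of the Mesenchymal nuclei. In the Epithelial class TMM gave 0.994 for fibrillar (0.834), 1.57 for FACIT (1.31) and 2.40 for *col7a1* (2.01), fibrillar was 0.722 in suffix 1 and 0.983 in suffix 2, and collagen VI (0.0689) 0.113 in suffix 2. Of single genes *col12a1b* reversed against clusters 0, 1 and 7 in suffix 2 (0.822). In suffix 2, 1 member in place of 2 was at least 2-fold higher for the Epithelial class. With 10 UMIs as the minimum 2 were higher in each of the Immune, Mature TB and Immature TB classes. For these changes the cause was not tested beyond what each alternative alters. Taking all barcodes was not run, since barcodes not kept carry no cluster. Scrublet, run with an expected rate of 0.06, marked 1 nucleus (0.0772%). Whether it missed doublets was not tested, and none were removed from the main comparisons. Since no member is named 1 of many, that alternative only altered totals. *col6a1* and *COL21A1* between epithelial clusters and *col6a2* against clusters 0, 1 and 7 gave no ratio in 1 suffix set, with 0 UMIs in the second set of nuclei. Depth limits the taste bud classes most.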
